A study of Mus musculus with 2 samples.

Results

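Among the FLAG-HLF peaks of this list, 252 were centred inside an annotated gene that does not code for protein, and away from every protein-coding gene. They are 7.99% of the 3153 peaks in the list (exact Clopper-Pearson 95% interval 7.07 to 8.99%). They were chosen by position alone: the centre of each 400 bp interval had to fall on chromosomes 1 to 19, inside a gene not classed as protein-coding, outside every protein-coding gene body and over 1 kb from every protein-coding gene end. Of 380 autosomal peak centres inside such genes, 105 also lay in a protein-coding body and 23 lay outside bodies but within 1 kb of an end. Both of these kinds were left out. HLF (hepatic leukemia factor) was expressed with a 3xFLAG tag (MigR1 3xFLAG-HLF/HLF) from a MigR1 retrovirus in Lin-Sca-1+c-Kit+ cells, a fraction rich in blood-forming stem cells and early progenitors. The mice were C57BL/6, aged 8 to 10 weeks, with blood as the labelled tissue. After 5 days of culture with SCF, IL-7, Flt3L and IL-3, FLAG-bound chromatin was recovered and sequenced (ChIP-seq). The series also has 1 library of cells given the empty MigR1 vector. That library's peaks were not analysed here, and the FLAG-HLF list (n = 1) has no replicate, so all intervals and tests below cover counting over peaks or genes and not the spread between cultures. The list holds positions only, so read depth and peak strength are unknown, and the protein was supplied from a virus, so its amount may differ from that of the cells' own HLF.

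HLF belongs to the PAR subgroup of basic leucine zipper (bZIP) transcription factors, which bind DNA as dimers at palindromic sites. Long noncoding RNA (lncRNA) genes are transcribed and spliced much like protein-coding genes but give no protein. Many lie beside regulatory elements of their coding neighbours, some are hosts of microRNAs or small nucleolar RNAs, and a few act in blood cells themselves.

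The hosts were mainly poorly characterised lncRNA genes. The 252 peaks lay in 243 genes, with 242 peaks in 1 gene and 10 in a pair of overlapping genes. Of the hosts, 227 were lncRNA genes, 8 pseudogenes (1 of them transcribed), 3 genes of the class misc_RNA and 5 of the class other. lncRNA genes are 9362 of the 19426 noncoding genes with any sequence that could hold such a peak. They cover 167.9 Mb of the 200.6 Mb of such sequence and held 235 of the 252 peaks, so most hosts would be lncRNA genes by sequence alone. Names gave little of a function: 183 were Gm numbers and 39 were Rik clone names. The share of such names among all noncoding genes was not counted, so these names are not known to set the hosts apart. Opposite-strand names were carried by 3 hosts, Il1bos, Sp3os and Zmiz1os1. The 5 hosts of the class other go against the description as noncoding. They are the antigen receptor loci Igh, Igk, Igl, Tcrb and Tcrg, whose gene segments are joined in lymphocytes into protein-coding genes, and they held 6 of the 252 peaks.

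Some of the peaks covered the start of a noncoding transcript, and the sequence there could be read. RefSeq promoter windows (build GRCm38.p6, 250 bases before to 50 after an annotated start) were on hand for 168 of the 243 hosts. In all, 11 of the 252 peaks overlapped 13 such windows of 11 noncoding genes, and 9 of the 11 peaks did so at the start of their own host. Across the whole list, peaks overlapped 50 of the 11311 noncoding windows on these chromosomes. The 5 windows below are those with the most bases under a peak, from 202 to all 300. Capitals mark 8-base words of the bZIP type (TTATGTAA, read here as its reverse complement TTACATAA, and the mixed word TTATGCAA), and a window all in lower case holds none.
D330050G23Rik, chr2:116899902-116900201, plus strand: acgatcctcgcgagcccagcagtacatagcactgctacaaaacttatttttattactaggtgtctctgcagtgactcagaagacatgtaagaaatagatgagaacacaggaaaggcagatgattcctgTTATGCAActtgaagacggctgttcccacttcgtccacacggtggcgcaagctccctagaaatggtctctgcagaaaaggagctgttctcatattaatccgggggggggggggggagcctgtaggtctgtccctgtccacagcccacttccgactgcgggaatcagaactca
Gm35941, chr9:63780702-63781001, minus strand: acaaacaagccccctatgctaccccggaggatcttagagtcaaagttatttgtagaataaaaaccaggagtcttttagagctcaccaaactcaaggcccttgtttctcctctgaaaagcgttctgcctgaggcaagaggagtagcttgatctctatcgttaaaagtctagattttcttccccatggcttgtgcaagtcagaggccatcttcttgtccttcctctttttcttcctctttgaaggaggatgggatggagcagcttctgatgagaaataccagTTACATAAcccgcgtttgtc
Gm41331, chr15:60141661-60141960, plus strand: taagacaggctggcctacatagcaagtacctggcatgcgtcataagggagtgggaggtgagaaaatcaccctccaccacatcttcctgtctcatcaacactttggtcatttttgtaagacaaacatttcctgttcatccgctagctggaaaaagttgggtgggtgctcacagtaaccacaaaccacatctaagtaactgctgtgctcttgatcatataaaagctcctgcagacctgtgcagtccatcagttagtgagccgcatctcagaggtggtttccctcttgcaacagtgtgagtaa
5930430L01Rik, chr5:148995165-148995464, minus strand: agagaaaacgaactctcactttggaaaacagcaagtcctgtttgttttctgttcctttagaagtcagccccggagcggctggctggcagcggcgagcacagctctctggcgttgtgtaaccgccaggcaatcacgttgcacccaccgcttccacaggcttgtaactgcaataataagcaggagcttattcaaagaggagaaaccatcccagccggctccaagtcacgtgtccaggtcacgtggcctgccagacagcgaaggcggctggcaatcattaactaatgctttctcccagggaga
Gm30963, chr10:89741144-89741443, minus strand: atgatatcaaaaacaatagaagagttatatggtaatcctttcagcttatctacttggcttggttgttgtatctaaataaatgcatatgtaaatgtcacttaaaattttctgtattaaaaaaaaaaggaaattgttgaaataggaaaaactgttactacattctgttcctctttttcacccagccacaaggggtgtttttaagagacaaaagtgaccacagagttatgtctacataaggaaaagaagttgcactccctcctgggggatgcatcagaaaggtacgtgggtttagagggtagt

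In the first of these windows, the word TTATGCAA lay 9 bp from the peak centre. This peak was centred 109 bp before the start of D330050G23Rik, inside the overlapping lncRNA gene Gm46758, and covered all 300 bases of the window. TTATGCAA was added to the search after the sequences were seen and is present in 0.663% of the 11311 noncoding windows. Gm35941 carried TTATGTAA, a PAR bZIP word, 22 bp from the centre of a peak placed 11 bp after its start. That word is found in 1.04% of all noncoding windows. The Gm41331 window held TTGCAA, the core of a C/EBP site, 12 bp from the centre of a peak 47 bp after its start, and 7.26% of all windows hold TTGCAA. No match to the words in capitals was found in the windows of 5930430L01Rik, fully covered by a peak inside the lncRNA gene Gm15411, or of Gm30963, whose peak lay 14 bp after its start.

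Each word was searched on both strands over whole windows, and overlapping hits of different words were all counted. The full palindrome TTACGTAA was in 0 of the 13 windows and in 0.0884% of all 11311. TTGCGCAA was likewise in 0 of 13 and in 0.106%. The AP-1 word TGACTCA was in 1 of 13 windows (6.25% of all), at D330050G23Rik, 67 bp from the peak centre. GAGGAAG, an ETS and PU.1 type word, was in 3 (13.7% of all), the GATA word AGATAA in 4 (13.96%) and the RUNX word TGTGGT in 4 (20.1%). Some of these words lay in the window but outside the peak interval. They were GAGGAAG at Gm13073 and Gm41331 (331 and 312 bp from the centre) and TGTGGT at Gm13073 and Gm41331 (233 and 220 bp). AGATAA lay outside it at Gm30963 and Gm33582 (216 and 296 bp). Gm41331 also held TGTGGT, and Gm33582 AGATAA, inside the peak. The windows of Gm41331 overlap and share TGTGGT sites. With 13 windows these counts are a description only, and the sequence under the other peaks was not used here.

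Host genes were long. Their median length was 20.1 kb, and lncRNA hosts had a median of 19.8 kb against 8.43 kb for all lncRNA genes of these chromosomes. The hosts were picked for holding a peak, which favours long genes even where peaks fall evenly. The longer median is therefore not a result about the peaks. Of 19426 noncoding genes with any sequence that could hold such a peak, 243 or 1.25% held 1 or more. By type, the share was 2.42% of 9362 lncRNA genes and 0.111% of 7208 pseudogenes, and peaks were in 7.21% of 20560 protein-coding gene bodies. Small RNA genes (miRNA, snoRNA, snRNA, tRNA, rRNA and guide RNA) held none, 0% of 2094, which allows a share of up to 0.143%. The median eligible pseudogene is 930 bp long and the median miRNA gene 83.5 bp, against 9203 bp for lncRNA genes, so the types offer very different lengths of sequence.

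Within lncRNA genes the share with a peak followed length. It was 0.739% of 2842 genes under 5 kb (0.458 to 1.13%), 2.34% of 4021 genes of 5 to 20 kb (1.89 to 2.85%), 4.11% of 2239 genes of 20 to 100 kb (3.33 to 5.02%) and 7.69% of 260 longer genes (4.76 to 11.6%). Protein-coding genes under 5 kb had a like share, 0.621% (0.413 to 0.896%). Above 5 kb their share was higher in every class, reaching 23.4% (21.6 to 25.1%) over 100 kb. The lncRNA counts leave out peaks near coding genes and the protein-coding counts do not, so the classes differ in what could be counted, and the difference was not tested.

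**Figure D1:**
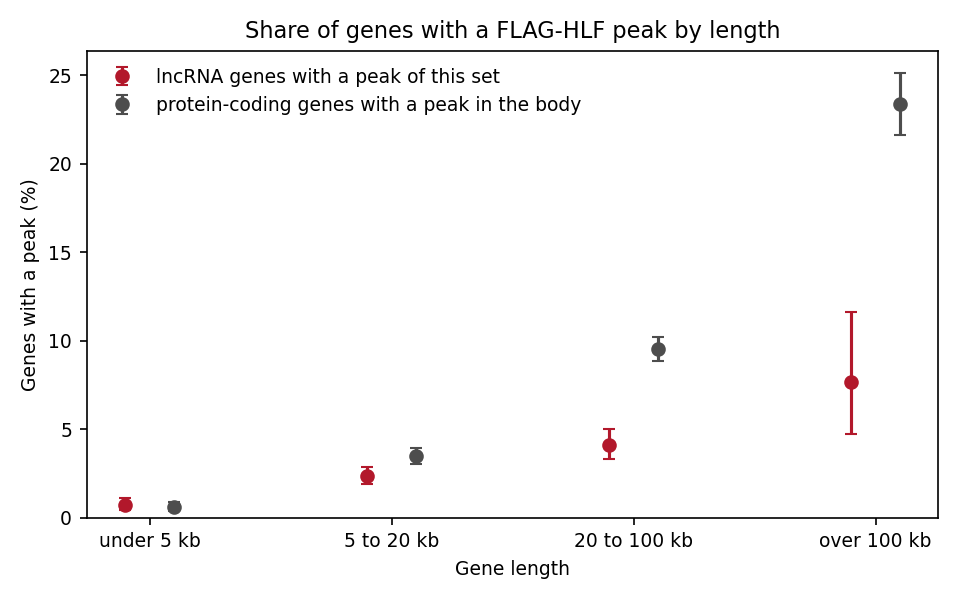
Percent of genes with a peak (vertical axis) by gene length class (horizontal axis) for lncRNA genes that hold a peak of the set and for protein-coding genes with a peak in the body. Points are shares and bars exact Clopper-Pearson 95% intervals, and lncRNA genes rise from 0.739% under 5 kb to 7.69% over 100 kb, and protein-coding genes from 0.621% to 23.4%.

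Peaks were denser inside noncoding genes than in sequence with no annotated gene. The comparison set was the 981 other peaks that met the same limits on protein-coding genes but lay in no gene at all, called open intergenic peaks here. The 252 peaks fell in 200.6 Mb of noncoding gene sequence, or 1.26 per Mb (exact Poisson 95% interval 1.11 to 1.42), against 0.828 per Mb (0.777 to 0.881) for the open peaks in 1185 Mb. lncRNA sequence alone held 1.40 per Mb (1.23 to 1.59). Assembly gaps and sequence where reads cannot be placed were not removed from either length, and their part in the difference was not tested.

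This difference was seen most clearly far from coding genes. Over 100 kb from any protein-coding end, noncoding genes held 49 peaks, 0.585 per Mb (0.433 to 0.773), and open sequence 109, 0.190 per Mb (0.156 to 0.230). Between 20 and 100 kb the densities were 1.41 (1.15 to 1.72) and 1.03 per Mb (0.923 to 1.15). Nearer than that the intervals overlapped: 1.99 (1.54 to 2.53) and 1.67 (1.49 to 1.86) at 5 to 20 kb, and 2.92 (2.04 to 4.04) and 2.28 (1.98 to 2.61) at 1 to 5 kb. In both kinds of sequence the density fell with distance. A test of whether the difference itself varied with distance was not made.

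**Figure D2:**
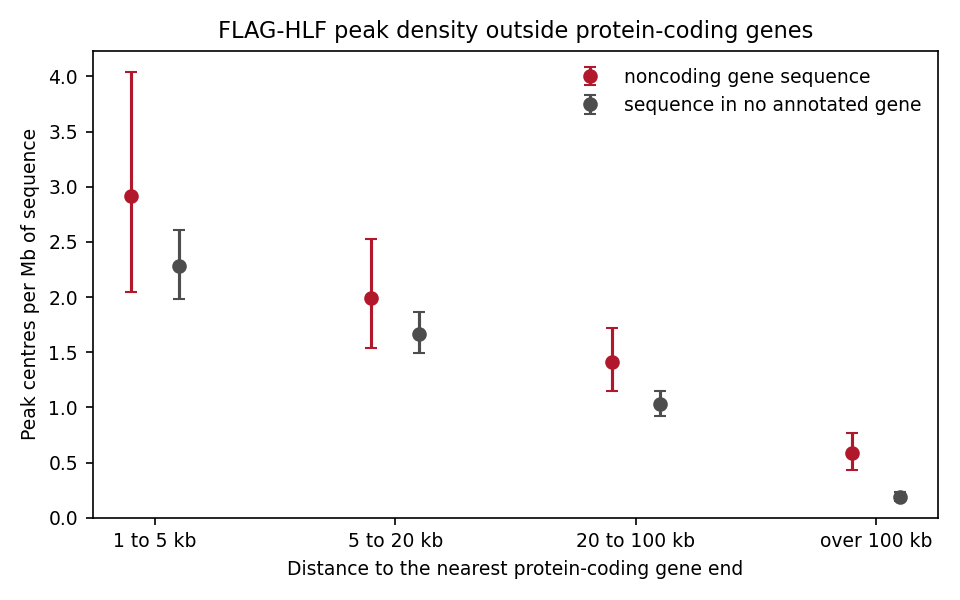
Peak centres per Mb (vertical axis) by distance to the nearest protein-coding gene end (horizontal axis), for noncoding gene sequence and for sequence in no annotated gene. Bars are exact Poisson 95% intervals, and over 100 kb away the values are 0.585 and 0.190 per Mb with bars that do not meet, and at 1 to 5 kb they are 2.92 and 2.28 with bars that overlap.

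As a group the peaks in noncoding genes were less often close to coding genes than open intergenic peaks. The median distance to the nearest protein-coding end was 27.3 kb, against 16.2 kb for open peaks. Within 20 kb lay 103 of 252 (40.9%, 34.7 to 47.2%) and 538 of 981 (54.8%, 51.7 to 58.0%), an odds ratio of 0.569 (Woolf interval 0.430 to 0.754, two-sided Fisher's exact test p = 9.65e-05, adjusted p = 0.000290 over the 3 comparisons made on all peaks). At this limit the underlying sequence differed little: 22.95% of noncoding gene sequence and 24.3% of open sequence is within 20 kb of such an end. Beyond it the sequence differed more, with 35.3% against 27.4% at 20 to 100 kb and 41.8% against 48.3% over 100 kb. The medians were not set against the sequence. The tests treat peaks as independent, and peaks that lie together would make p too small.

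The coding gene end nearest to these peaks was more often a start. Strand could be read for the nearest protein-coding gene of 189 peaks in noncoding genes and 763 open peaks. The nearest end was the 5′ end for 134 of 189 (70.9%, 63.9 to 77.3%) and for 442 of 763 (57.9%, 54.3 to 61.5%), an odds ratio of 1.77 (1.25 to 2.50, Fisher's exact test p = 0.00116, adjusted p = 0.00174). Noncoding gene sequence itself is tilted the same way, with 56.7% nearest to a 5′ end against 52.9% of open sequence (61.0% against 52.8% within 20 kb of a coding gene). Per Mb of noncoding gene sequence there were 1.53 peaks (1.28 to 1.81) where the nearest coding end is a 5′ end and 0.820 (0.617 to 1.07) where it is a 3′ end. Open sequence gave 0.906 (0.824 to 0.995) and 0.738 (0.659 to 0.823). Among peaks within 20 kb only, the odds ratio was 1.67 with p = 0.0574 (Fisher's exact test), which did not pass the threshold of 0.05.

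Over all lncRNA gene sequence, with or without a peak in the gene, density was highest near gene ends. Within 1 kb of an end there were 55 peaks in 15.7 Mb of lncRNA sequence, 3.50 per Mb (2.64 to 4.56). The density was 2.09 (1.68 to 2.56) at 1 to 5 kb, 0.882 (0.659 to 1.16) at 5 to 20 kb and 0.720 (0.501 to 1.001) deeper inside. The same order held over 20 kb from any coding gene for the first 3 classes, at 2.58 (1.69 to 3.79), 1.75 (1.30 to 2.31) and 0.690 (0.469 to 0.979) per Mb, with 0.698 (0.478 to 0.986) in the deepest class. Over all host types, 58 of 252 peaks (23.0%, 17.97 to 28.7%) lay within 1 kb of a host end, against 12.0% of all eligible noncoding sequence and 2.69% of the host genes' own sequence. The host genes were picked for holding a peak, and their sequence includes Igk (3171 kb) and Igh (2751 kb). The 2.69% is therefore not a background share.

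Peaks near a host end lay at both 5′ and 3′ ends. Among peaks in hosts of known strand that were within 1 kb of a single end, 17 lay at the 5′ end and 22 at the 3′ end (43.6% at the 5′ end, 27.8 to 60.4%, two-sided exact binomial test p = 0.522). With 39 peaks, a modest preference for either end would not be detectable. The rule leaves out peaks within 1 kb of a coding gene end, which removes noncoding starts that lie beside a coding promoter.

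**Figure D3:**
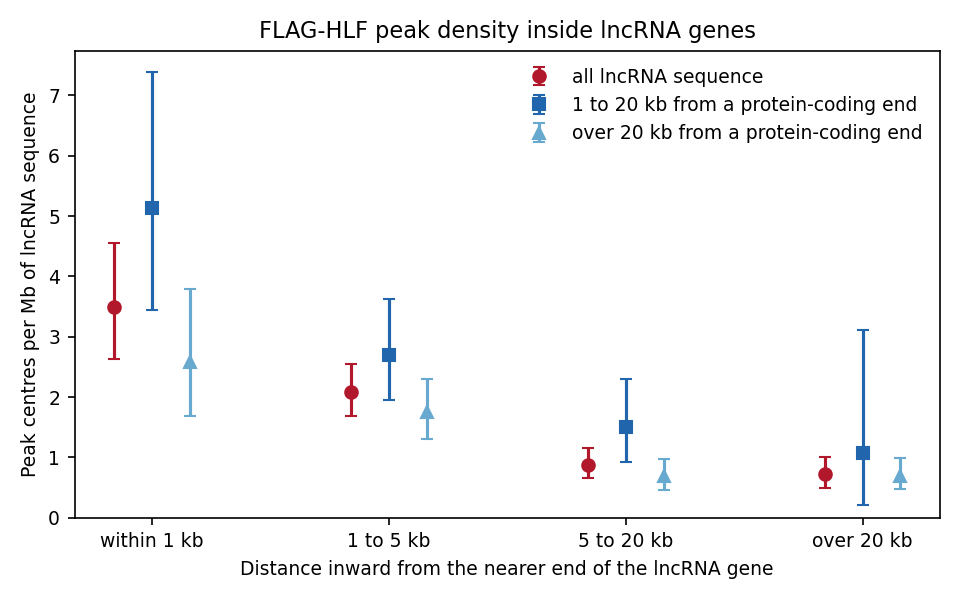
Peak centres per Mb of lncRNA gene sequence (vertical axis) by distance inward from the nearer end of the gene (horizontal axis), for all lncRNA sequence and split by distance to protein-coding ends. Bars are exact Poisson 95% intervals, and the red points for all lncRNA sequence fall from 3.50 within 1 kb of an end to 0.720 over 20 kb inside.

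The 10 peaks nearest to a host end included several lncRNA starts. Those of Gm35941, Gm30963, 4930573C15Rik and Gm41331 were centred 11, 14, 48 and 132 bp inside the first annotated base of their genes. At 4930573C15Rik a second peak lay 4.17 kb away. Gm36148 (23 bp, 14.2 kb from the start of Creb1), Gm12708 (97 bp) and Gm52771 (161 bp, in a region shared with the pseudogene Gm2420) had theirs at the 3′ end. The lncRNA genes Gm41699 (22 bp) and Gm52598 (49 bp) and the pseudogene Gm8213 (122 bp) have no strand here.

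Among noncoding genes known for a role in blood or in most cells, 2 held a peak of the set: Morrbid and Snhg12. They are 2 of the 55 genes of a list of 66 that were found in the gene table on these chromosomes (3.64%, against 1.25% of all eligible noncoding genes). The 55 were not limited to genes with sequence that could hold such a peak, so the 2 shares are of unlike sets. Including other peaks, 4 of the 55 had a peak in the gene or within 20 kb (7.27%, against 7.63% of all 26154 noncoding genes), so the list was close to the background. Genes of the list with no peak in that range included Malat1, Neat1, Mir155hg, Mir17hg, Dleu2, Pvt1, Gas5 and Hotairm1.

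Morrbid (gene ID 100043424, GRCm38 chromosome 2, 128298663 to 128429351, minus strand) gives a lncRNA that controls the lifespan of short-lived myeloid cells by restraining the pro-apoptotic neighbour Bcl2l11, which encodes BIM. It held 2 peaks, at 128334062 to 128334461 and 128414610 to 128415009, the first 35.6 kb from its 3′ end and the second 14.5 kb from its 5′ end. The first lay 171.7 kb from Bcl2l11, its nearest coding gene, and the second 176.4 kb from Spdye4c. The next lncRNA gene, Gm39928 (128490170 to 128549717, minus strand), held 2 more, centred 3.94 and 8.70 kb from its 3′ end.

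Snhg12 (gene ID 100039864, chromosome 4, 132308678 to 132311024, plus strand) is a host of small nucleolar RNAs, which guide the chemical modification of ribosomal and other RNAs. Its peak at 132308993 to 132309392 was centred 514 bp after its 5′ end and 273 bp from the first of its 4 annotated small RNAs, Snora16a. The nearest coding gene was Trnau1ap, which acts in selenocysteine incorporation, 2.57 kb away.

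No peak of the set lay inside a microRNA gene, but 7 of 252 were within 20 kb of one (2.78%, 1.12 to 5.64%). For open peaks this was 22 of 981 (2.24%, 1.41 to 3.38%) and for all autosomal peaks 98 of 3128 (3.13%, 2.55 to 3.81%), so the share was close to the background. The nearest was in the lncRNA gene Gm36493 (chromosome 19, 46338760 to 46344131), which contains Mir146b. The microRNAs of the miR-146 family dampen inflammatory signalling in myeloid cells. The peak at 46339722 to 46340121 was centred 2.84 kb before the hairpin on the chromosome and 1.25 kb from the start of the coding gene Cuedc2, so it is also one of those closest to the 1 kb limit. The mature products of this hairpin (RefSeq, GRCm38.p6, plus strand) are printed with the seed, bases 2 to 8, in capitals.
mmu-miR-146b-5p, chr19:46342790-46342811: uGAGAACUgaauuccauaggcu
mmu-miR-146b-3p, chr19:46342828-46342849: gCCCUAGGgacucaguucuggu

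For some peaks the nearest coding gene has a known role in blood. A list of 163 such genes was used, and 162 of them were found. The nearest coding gene was on the list for 11 of 252 peaks (4.37%, 2.20 to 7.68%), for 39 of 981 open peaks (3.98%, 2.84 to 5.40%) and for 110 of all 3128 autosomal peaks (3.52%, 2.90 to 4.22%). The 3 intervals overlap. Listed genes make up 0.788% of the protein-coding genes. That is a share of genes and not of sequence, and the sequence nearest to listed genes was not measured. The list was also chosen with earlier results of these data known, so no enrichment can be read from this contrast.

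The 11 peaks had 9 listed genes as their nearest coding genes, at distances from 1147 bp to 175.1 kb. All 11 lay inside lncRNA genes, as did 235 of the whole set of 252. In 0610040F04Rik the peak (chromosome 6, 108659283 to 108659682) was 1147 bp from Bhlhe40, a bHLH repressor of activated immune cells. In Gm34064 (chromosome 11, 87790027 to 87790426) it was 3.56 kb from the start of Mpo, the neutrophil granule enzyme myeloperoxidase, with another peak 10.6 kb away. The Gm32908 peak (chromosome 4, 126017658 to 126018057) lay 5.58 kb from the start of Csf3r, the receptor of granulocyte colony-stimulating factor.

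Lmo2, an adaptor of the transcription factor complexes that set up blood formation, was the nearest coding gene of 3 peaks. A pair in Gm39896 (chromosome 2, 103945737 to 103946136 and 103946872 to 103947271) lay 12.0 and 10.8 kb from it, and 1 in Lincred1 (103906732 to 103907131) lay 51.0 kb from it. The other 5 were over 80 kb from the listed gene. They were in Gm33104 (85.2 kb from Ifngr1, an interferon-gamma receptor chain), Gm46545 (87.8 kb from Bcl6, a transcriptional repressor of germinal centre B cells), Gm12708 (157.4 kb from the AP-1 subunit gene Jun), Gm36819 (174.1 kb from the pseudokinase gene Trib1) and Gm12610 (175.1 kb from the cell cycle inhibitor gene Cdkn2b). Of those 5, 4 were within 1 kb of an end of the host gene, namely 614, 213, 97 and 406 bp for Gm33104, Gm46545, Gm12708 and Gm36819. No other peak of the 11 was within 1 kb of a host end. In the whole set, 58 of 252 peaks (23.0%) were that close. The 11 peaks were not tested against this share, and the 5 were picked by their distance from a listed gene.

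A few hosts held more than 1 peak. There were 17 such genes with 36 peaks, 15 of them with 2 and 2 with 3. Peaks in noncoding genes had another peak of the list within 25 kb no more often than open peaks did, 54 of 252 (21.4%, 16.5 to 27.0%) and 212 of 981 (21.6%, 19.1 to 24.3%). This is an odds ratio of 0.989 (0.706 to 1.39, p = 1.0 and adjusted p = 1.0 by Fisher's exact test), and the interval allows a moderate difference in either direction. Split by distance to coding genes, a split added after values were seen, the odds ratio by Fisher's exact test was 0.574 at 1 to 5 kb (16.7% against 25.8%, p = 0.297), 1.05 at 5 to 20 kb (p = 0.871), 0.997 at 20 to 100 kb (p = 1.0) and 2.54 over 100 kb (20.4% against 9.17%, p = 0.0688). These p-values were not adjusted, and none passed 0.05. The median distance to the nearest peak was 116.9 kb, with a range from 638 bp to 2271 kb.

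The separation of neighbouring peaks in a host ran from 638 bp to 99.2 kb. At the short end, in Gm39556 (chromosome 15, 74926484 to 74935442), 3 peaks starting at 74926670, 74928861 and 74930744 lay 2191 and 1883 bp apart, 24.1 to 28.2 kb from Ly6e, a member of the Ly6 surface protein family that also includes the antigen Sca-1. The peaks of 1500015L24Rik were 638 bp apart, 19.1 and 19.8 kb from the start of Anxa1, a regulator of inflammation. Those of 1700112H15Rik were 808 bp apart, 190.6 and 191.4 kb from Hlx, a homeobox gene of blood and gut development. Gm39896 (1135 bp, beside Lmo2) and Gm13481 (1439 bp apart, near Acvr2a at 498.7 and 500.1 kb) were of the same kind. At separations under 2.2 kb, neighbouring intervals may come from 1 broad region of signal, which a list of fixed-width intervals does not show.

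Wider separations were found in the other hosts. Gm13986, a 253.9 kb gene next to Thbs1, the gene of thrombospondin, held 3 peaks between 98.5 and 143 kb from Thbs1. Vis1 held 2 that were 17.6 kb apart, 144.6 and 162.2 kb from the start of Zeb2, a zinc finger repressor needed in blood stem cell differentiation. Gm11963 held 1 near each end, 18.1 and 32.7 kb from the start of Xbp1, a transcription factor of the unfolded protein response. In 4930469K13Rik 1 of 2 peaks was 10.5 kb from the start of Lcp2, which encodes the signalling adaptor SLP-76, and the other was nearest to Kcnip1, at 17.0 kb. Gm32543 lay 109.7 and 160 kb from Cited2, a transcriptional coregulator, by its peaks. Tcrb, the T cell receptor beta locus, had 2 peaks 99.2 kb apart. The remaining hosts with 2 peaks were Gm34894 (5.11 kb apart), 4933432I03Rik (9.42 kb), Gm41659 (35.5 kb) and Gm35507 (39.95 kb).

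**Figure D4:**
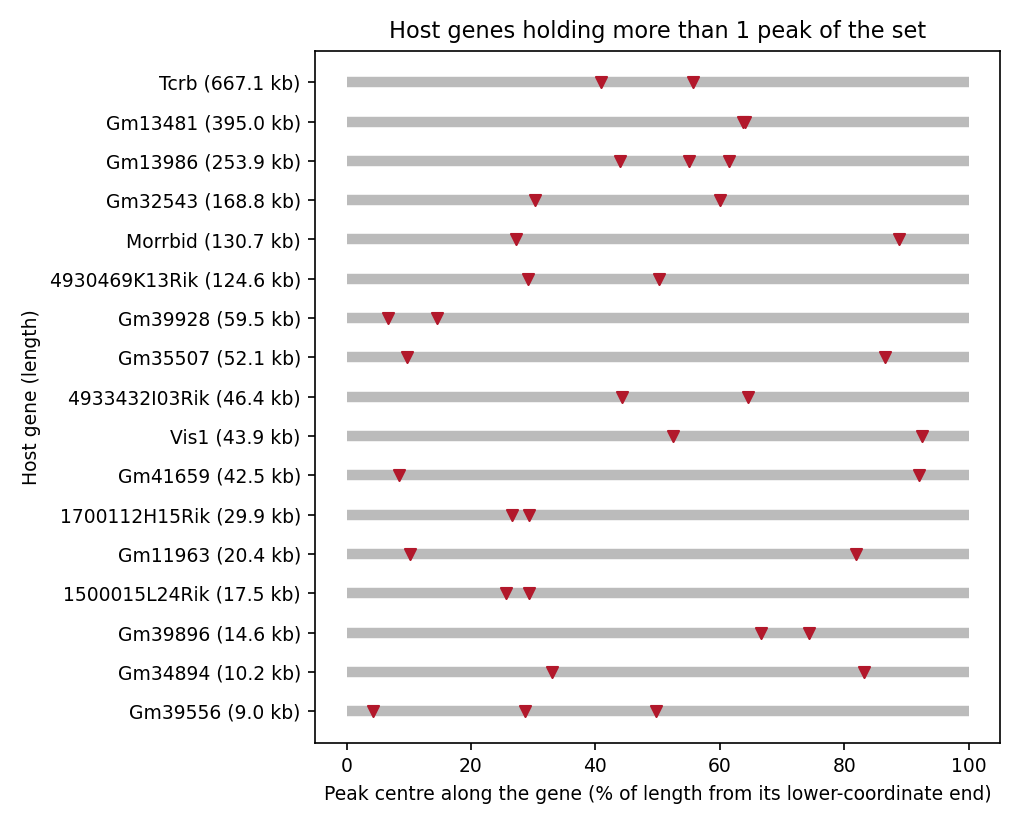
Positions of peak centres (triangles) along the 17 host genes that hold 2 or 3 peaks of the set, with each gene drawn to the same width and its length in kb beside its name. The horizontal axis is percent of gene length from the lower-coordinate end, on which the 3 peaks of Gm39556 lie between 4.30% and 49.8% of its 8.96 kb, and the 2 of Gm13481 nearly coincide at 63.7% and 64.1% of 395 kb.

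In the 5 longest hosts a peak could lie far from either end of the gene that held it. Igk (3171 kb) and Igh (2751 kb) each held 1 peak, 1210 and 986 kb from the nearer end of the locus, with annotated gene segments and small RNA genes between, and the Igk peak was the farthest from a coding gene, at 1249 kb from Rpia. The others were Tcrb (667.1 kb), A930011G23Rik (431.8 kb, 112.5 kb from Rasgef1b) and Gm13481. Across all 252 peaks the median distance to the nearer host end was 3.61 kb.

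The limit of 1 kb from coding genes cut through a continuous range of distances. Just inside it were the peaks in 0610040F04Rik (1147 bp from Bhlhe40) and Gm46046 (1169 bp from Adgre5). Just outside were those in Gm40362 (chromosome 12, 31501392 to 31501791, 915 bp from Cbll1) and Gm33433 (chromosome 8, 33652247 to 33652646, 792 bp from Gsr). All 19 chromosomes held peaks of the set, from 5 on chromosome 17 (3.94% of its peaks) to 28 on chromosome 2, and chromosome 3 had the highest share, 12.8% of its peaks.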

How the data were processed

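ChIP-seq peaks of FLAG-HLF in cultured Lin-Sca-1+c-Kit+ cells were analysed from 1 library. The authors deposited a list of 3153 intervals in 3 columns (chromosome, start and end, 400 bp each). The list has no score, so no value could be weighed by signal. The submitters' processing notes name the build mm10, Bowtie2 2.0.6 and MACS2 2.0.10 without their roles. Whether the empty-vector library was used in calling is not given in the sources used here. Centres (start plus 200 bp) were placed on the RefSeq gene table of GRCm38.p6, the same coordinates. Of its 49997 genes, 2955 not on chromosomes 1 to 19 and 328 starting below 3 Mb were dropped, leaving 46714. Strand and sequence came from the RefSeq promoter table. Fisher's exact tests and exact binomial and Poisson intervals (95%) used scipy 1.17.1. Benjamini-Hochberg adjustment used statsmodels 0.14.6, and odds ratio intervals are Woolf's. Placement was tested on simulated peaks.

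The peaks and gene lists were chosen with earlier results of these data known. The 5′ end comparison, the strand test, the densities, the split of neighbouring peaks by distance and the mixed words were chosen after values were seen. Named by rule were listed noncoding genes, hosts with 2 or more peaks, the 5 longest hosts and the 10 peaks nearest a host end. So were up to 15 peaks whose nearest coding gene is on the blood list. Another group was 2 peaks on each side of the 1 kb limit. Genes at promoter windows and Mir146b were added to these.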

Additional observations from a re-analysis of the deposited data

How the results depend on the processing

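The number of peaks in the set stayed between 216 and 275 over 9 other rules for choosing it, and the odds ratio for lying near a coding gene was 0.600, 0.649 and 0.518 with limits of 10, 50 and 100 kb and 0.562 at 20 kb for RNA genes only, each with p under 0.05 by Fisher's exact test. The share near a host end follows its distance limit: 14.7% at 500 bp and 36.5% at 2 kb. The odds ratio for another peak nearby (0.989) stayed below 1 at 50 kb (0.964) and among peaks 1 to 5 kb (0.574) and 20 to 100 kb (0.997) from coding genes. It changed side at 10 kb (1.03), with 1 peak for each cluster (1.21), among peaks 5 to 20 kb from coding genes (1.05) and among those over 100 kb (2.54, Fisher's exact p = 0.0688), never passing the threshold. The odds ratio for a nearest 5′ end was 1.67 within 20 kb (Fisher's exact p = 0.0574), with fewer peaks tested. Counting the mixed bZIP words raised the promoter windows with a word from 1 to 2. Densities in lncRNA genes alone stayed inside the intervals of all noncoding genes. Motif searches over whole peaks (400 bp against their central part) were not run, since no genome sequence was used. No paired analysis was possible because a single library was used, which also leaves no replicate to omit. Depth is unknown, so a gene without a peak may have binding below the calling limit.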

Other observations

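The hosts with opposite-strand names fall outside the naming rule and were picked after their values were seen. The peak in Il1bos, the opposite-strand gene of the inflammatory cytokine gene Il1b, was at chromosome 2, 129373158 to 129373557, and lay 2193 bp from the start of Il1b. The Sp3os peak lay 3.93 kb from the start of Sp3, a zinc finger transcription factor. Zmiz1os1 held a peak 144.6 kb from the start of Zmiz1, a transcriptional coactivator, and 58.3 kb from its own nearer end.

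The windows printed for bZIP words rest on few peaks, and the word TTACGTAA with up to 1 mismatch was found in 1 of 13 windows against 4.06% of all 11311.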
